A study of Rattus norvegicus with 54 samples.

Results

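Egr1, Egr2, Egr3 and Egr4 encode the early growth response proteins, a family of zinc-finger transcription factors. They were chosen by Ensembl identifier and chromosome, and all 4 of the 4 were among the 30560 genes of the count table. Their mRNA was measured in cultures of cortical neurons from E18 rats (*Rattus norvegicus*), in a study of Mbd3, a methyl-CpG binding domain protein, in epileptogenesis. The cultures were untransfected, or transfected with an adeno-associated virus: AAV-SYN-GFP, the control virus (GFP below), or AAV-SYN-rMBD3-GFP, made to overexpress Mbd3 (rMBD3 below). The SYN promoter is used to drive a transgene in neurons. Each kind of culture was kept in standard medium with magnesium or in medium without magnesium, which induces epileptiform activity, and was sampled at 2, 6 and 24 h after induction. This gave 18 groups, each with 3 replicate cultures, and 54 libraries in all. The labels number the cultures 1 to 3 in every group, and libraries of different groups with the same number are called same-numbered below. The labels do not state whether they came from one dissection.

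Egr genes are immediate early genes: synaptic activity, growth factors and depolarization switch on their transcription within minutes, without new protein synthesis, and the response normally fades soon after. Kinase signalling reaches their promoters through serum response factor, which binds the serum response element or CArG box, and through CREB, which binds cAMP response elements. In neurons, Egr1 (also called Zif268 or NGFI-A) is linked to lasting synaptic plasticity and memory, Egr2 (Krox20) is best known for its roles in hindbrain patterning and Schwann cell myelination, and Egr3 (Pilot) acts downstream of neuronal activity and neurotrophins. Egr4 (NGFI-C) was found, like Egr1, as a gene induced by nerve growth factor. Egr1, Egr2 and Egr3 share a binding site for the NAB corepressors, which Egr4 lacks.

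On mRatBN7.2, the build of the count table, Egr1 (ENSRNOG00000019422) lies on the plus strand at chr18:26462981-26466766 and Egr2 (ENSRNOG00000000640) on the minus strand at chr20:21051277-21055562. Egr3 (ENSRNOG00000017828) lies on the plus strand at chr15:45150567-45154627 and Egr4 (ENSRNOG00000015719) on the minus strand at chr4:118047869-118050328. Their annotated exons, over which reads were counted, sum to 3114, 2956, 3018 and 2145 bases. The genes are thus unlinked, and none overlaps another.

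The RefSeq promoter table (GRCr8) held 3 of the members. The 250 bases before each transcription start are shown and were searched for the motifs given below. Sequence outside this window was not searched. Capitals mark every match to the CArG box and to TGACG, the core of the cAMP response element, which appears as CGTCA where it is on the other strand. The windows are chr18:26736828-26737077 (plus strand) for Egr1, chr20:21054442-21054691 (minus strand) for Egr2 and chr4:119607818-119608067 (minus strand) for Egr4. The Egr2 window belongs to 1 RefSeq start, and the gene also has transcribed sequence further upstream.
Egr1: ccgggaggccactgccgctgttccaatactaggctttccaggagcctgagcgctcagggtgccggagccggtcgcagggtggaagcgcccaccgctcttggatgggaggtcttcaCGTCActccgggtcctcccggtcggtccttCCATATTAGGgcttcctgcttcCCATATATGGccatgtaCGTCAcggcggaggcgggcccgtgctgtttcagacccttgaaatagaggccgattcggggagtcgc
Egr2: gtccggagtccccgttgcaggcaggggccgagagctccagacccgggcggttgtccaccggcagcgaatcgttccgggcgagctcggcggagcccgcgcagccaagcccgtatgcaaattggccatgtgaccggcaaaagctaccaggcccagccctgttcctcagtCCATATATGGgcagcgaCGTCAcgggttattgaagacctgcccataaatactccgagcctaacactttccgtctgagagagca
Egr4: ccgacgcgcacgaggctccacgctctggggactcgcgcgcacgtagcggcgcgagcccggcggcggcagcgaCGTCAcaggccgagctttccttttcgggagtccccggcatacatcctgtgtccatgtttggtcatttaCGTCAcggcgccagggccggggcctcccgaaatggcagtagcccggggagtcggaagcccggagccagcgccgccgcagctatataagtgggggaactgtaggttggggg

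Egr1 and Egr2 carried the same CArG box, CCATATATGG, at the same distance, 83 to 74 bases before the start, and the same CGTCA 66 to 62 bases before it. Egr1 had a further CArG box, CCATATTAGG, whose last base lies 96 bases before the start, and a further CGTCA at 135 to 131 bases. The Egr4 window had no CArG box and held CGTCA at 178 to 174 and at 110 to 106 bases before the start. At least 1 CArG box was present in 1.5% of the 33469 promoter windows of this length, and at least 2 in 0.0209%. At least 1 TGACG was present in 18.2% of the windows on either strand, at least 2 in 3.98%, and a CArG box together with TGACG in 0.23%. None of the 3 windows held the full palindrome TGACGTCA (1.59% of all windows), each copy of which also counts as TGACG on both strands. None held GCGNGGGCG, the sequence that Egr proteins bind (4.29% of all windows). These matches describe the letters of the windows and show no binding.

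Total counts per library ran from 14448927 to 39691105. All 4 members passed the low-count filter, with lowest counts of 2716 for Egr1, 191 for Egr2, 5 for Egr3 and 38 for Egr4 in any library. A count of 3, taken as the floor, was worth 0.076 to 0.206 CPM (count scaled to the library's total) in these libraries, so only Egr3 at 24 h came near it. The libraries of culture number 1 differed from the others at 6 and 24 h, with overlap, and little at 2 h. Scores were taken on the first principal component of all genes (39.2% of the variance). The 24 h libraries had median scores of 34.1 in culture 1 (range 13.9 to 74.5), 121 in culture 2 (79.6 to 137) and 99.8 in culture 3 (8.67 to 134). The 2 h medians were -66.3, -75.0 and -74.5 in cultures 1, 2 and 3, and -73.0 over all cultures. Mitochondrial genes took a median of 3.68% of the counts at 6 h in culture 1, 1.95% in culture 2 and 2.75% in culture 3. Results below are therefore also given without culture 1 where this matters. The gene with the largest rise in rMBD3 cultures, ENSRNOG00000028956, had 2291 to 18260 CPM in them, against 113.2 to 268.7 in GFP and 120.9 to 271.3 in untransfected cultures. It was chosen for this rise, so the gap describes the choice. Markers of neurons and of other cell types, and Mbd3 itself, were not analysed here because the gene identifiers were not paired with symbols.

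Egr1 was the most abundant member and Egr3 the least abundant in all 18 groups. This order was read on RPKM, the count scaled to exon length and library size, which allows levels of different genes to be compared. At 2 h, the mean RPKM over all 18 libraries was 121 ± 61.5 for Egr1, 56.1 ± 32.8 for Egr4, 11.6 ± 6.03 for Egr2 and 7.22 ± 3.81 for Egr3 (SD, n = 18). At 24 h it was 82.6 ± 78.8 for Egr1, 6.44 ± 4.60 for Egr2, 4.0 ± 3.96 for Egr4 and 1.18 ± 1.13 for Egr3. Egr2 and Egr4 therefore exchanged places. Egr4 had the higher RPKM in 18 of 18 libraries at 2 h, in 15 at 6 h and in 4 at 24 h. In group means, Egr4 was above Egr2 in 6 of 6 groups at 2 h, 5 of 6 at 6 h and 2 of 6 at 24 h. At 24 h these neighbours in the order did not differ beyond their spread. Egr2 and Egr3 were also close at 2 h, where Egr3 was the higher in 2 of 18 libraries, but not at 6 or 24 h, where Egr2 was higher in all 18. Egr1 was above Egr4 in every library but 1, at 2 h.

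The makeup of the family pool changed with time. The share of Egr1 in the summed RPKM of the 4 members was 61.9 ± 8.26% at 2 h (SD, n = 18). It was 77.1 ± 6.18% at 6 h and 87.0 ± 2.62% at 24 h. Egr4 went from 28.4 ± 8.21% through 13.2 ± 5.26% to 3.94 ± 1.98%. The share of Egr2 was 5.88 ± 1.14%, 7.82 ± 2.60% and 7.87 ± 2.96%, and that of Egr3 was 3.74 ± 1.15%, 1.90 ± 0.552% and 1.18 ± 0.655%.

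**Figure D1:**
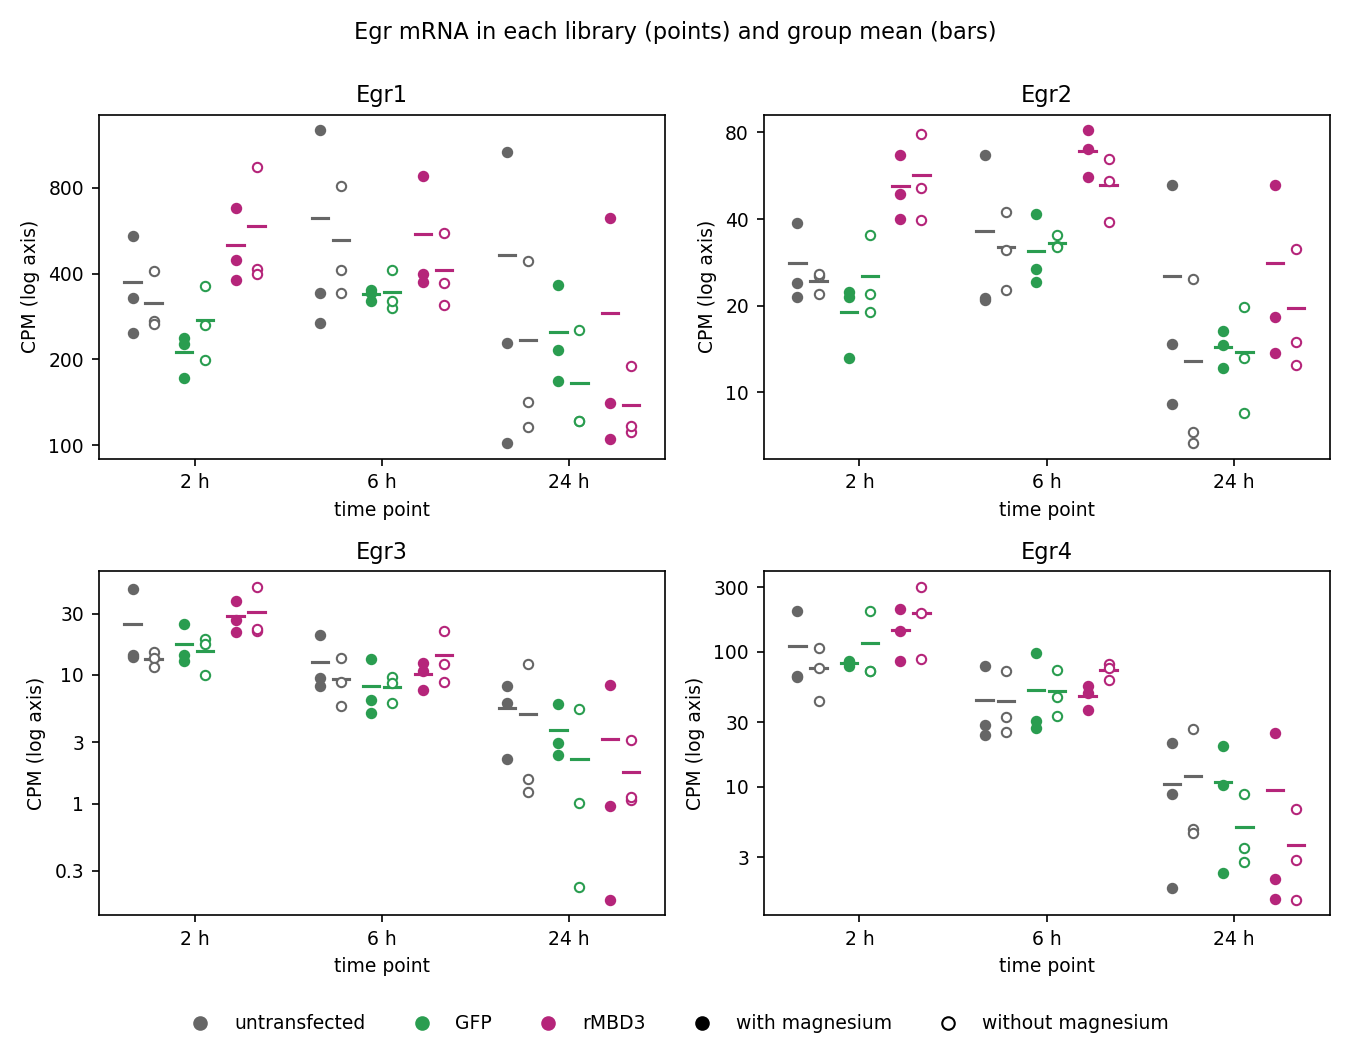
Level of each Egr mRNA in CPM (log axis) at 2, 6 and 24 h. Each point is 1 library, bars are group means of 3 replicate cultures, colours are constructs, and open points are cultures without magnesium. Egr3 and Egr4 step down from 2 h through 6 h to 24 h, whereas Egr1 and Egr2 at 6 h overlap their 2 h values.

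Time separated the members into pairs. Between 2 and 6 h Egr3 and Egr4 fell, while Egr1 and Egr2 had higher means that did not pass the test. By 24 h the averages of all 4 members were below their 2 h and 6 h levels, Egr4 by the widest margin. For Egr1 and Egr2 some of these falls did not pass in every alternative fit, as given below. In a bulk culture, fewer cells that express a gene and less mRNA per cell cannot be told apart. Changes in time were common in these libraries: 49.1% of the 17172 genes tested changed between 2 and 6 h (22.2% rose, 26.9% fell), 50.6% between 6 and 24 h (26.3% fell) and 69.5% between 2 and 24 h (34.2% rose, 35.3% fell), at an adjusted p under 0.05 in edgeR's quasi-likelihood test, with Benjamini-Hochberg adjustment over all genes. The median change over all genes was -0.02, 0.01 and 0.02 on the log2 scale. The edgeR test did not pair libraries by culture number, except where a block is named.

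Egr4 was at 43.3 CPM in the lowest, 85.5 in the median and 301 in the highest of the 18 libraries at 2 h. At 6 h these values were 23.9, 47.7 and 97.9, and at 24 h they were 1.45, 4.70 and 26.5. Every 24 h library was thus below every 2 h library, which held for 8.14% of genes in this direction. The log2 change was -1.17 ± 0.33 (SE) from 2 to 6 h (edgeR adjusted p = 0.0036) and -2.69 ± 0.36 from 6 to 24 h (adjusted p = 5.9e-08). From 2 to 24 h it was -3.86 ± 0.37, a 14.5-fold drop (adjusted p = 6.6e-12). Egr4 ranked 157 of 17172 genes from the most lowered. It was lower at 24 h in all 18 of the 18 same-numbered pairs of libraries of 1 construct and medium, as were 14.6% of genes.

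Egr3 had 10.0, 18.2 and 48.4 CPM (lowest, median and highest library) at 2 h, 5.08, 9.18 and 22.1 at 6 h, and 0.179, 2.29 and 12.2 at 24 h. Neighbouring time points overlapped, and of the 24 h libraries only the highest, untransfected culture 1 without magnesium, exceeded the lowest 2 h library. Its log2 change was -1.01 ± 0.33 from 2 to 6 h (edgeR adjusted p = 0.0099), -1.64 ± 0.34 from 6 to 24 h (adjusted p = 0.00011) and -2.66 ± 0.35 from 2 to 24 h (adjusted p = 1.3e-08), the last a 6.31-fold drop. Egr3 fell in all 18 same-numbered pairs in each of these 3 comparisons, as did 13.9%, 5.03% and 14.6% of genes.

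Egr2 had 13.2, 25.5 and 79.2 CPM (lowest, median and highest) at 2 h, 20.9, 37.1 and 81.5 at 6 h, and 6.66, 14.6 and 52.6 at 24 h. The 3 ranges overlapped. From 2 to 6 h the log2 change was 0.36 ± 0.21 and did not pass the test (edgeR adjusted p = 0.15), with higher values in 13 of 18 pairs. Egr2 then fell by 1.15 ± 0.21 from 6 to 24 h on the log2 scale (adjusted p = 1.8e-05), in all 18 pairs, and stood 0.79 ± 0.21 below its 2 h level at 24 h (a log2 change of -0.79, adjusted p = 0.0010).

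Egr1 had 171, 345 and 946 CPM at 2 h, 268, 361 and 1274 at 6 h, and 102, 155 and 1065 at 24 h (lowest, median and highest). The ranges overlapped. The highest values at 6 and 24 h were from untransfected culture 1 with magnesium, and the 5 highest of the 24 h libraries were all from culture 1. The log2 change from 2 to 6 h was 0.35 ± 0.25 (edgeR adjusted p = 0.26), with higher values in 14 of 18 pairs. Egr1 fell by 0.93 ± 0.25 from 6 to 24 h on the log2 scale (adjusted p = 0.0024). The fall from 2 to 24 h was small, with a log2 change of -0.58 ± 0.25 (adjusted p = 0.040), and it was lost with DESeq2 (adjusted p = 0.054), with relative log expression factors (0.064), with no low-count filter (0.063), without culture 2 (0.27) and without culture 3 (0.33).

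Leaving out culture 1 made every fall to 24 h larger. The log2 changes from 2 to 24 h were then -1.05 for Egr1, -1.26 for Egr2, -3.52 for Egr3 and -4.78 for Egr4. The rises of Egr1 and Egr2 from 2 to 6 h passed the test only in that fit for Egr1 (0.25, edgeR adjusted p = 0.033), and for Egr2 in that fit (0.32, adjusted p = 0.021) and with a replicate block per time point (0.35, adjusted p = 0.036). In each of these fits 57.5% of genes passed between 2 and 6 h. Without culture 3 no member passed between 2 and 6 h, with adjusted p of 0.10 for Egr3 and 0.15 for Egr4. Without culture 2, Egr3 did not pass there (adjusted p = 0.062). From 2 to 24 h, Egr2 was not called without culture 2 (adjusted p = 0.058) or culture 3 (0.086). From 6 to 24 h, Egr1 was not called without culture 3 (adjusted p = 0.092).

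**Figure D2:**
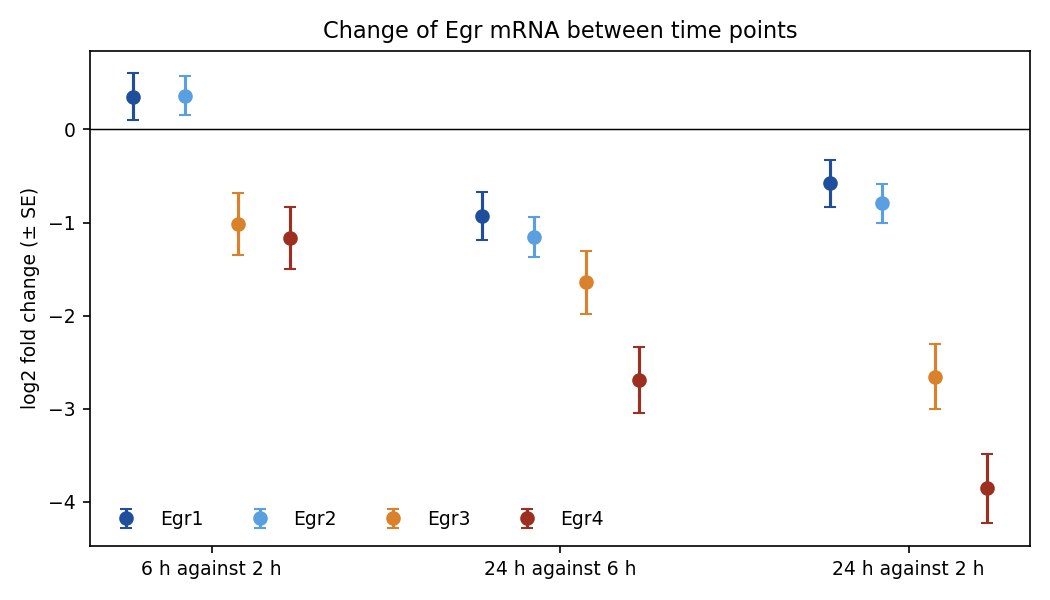
Log2 fold change (± SE) of each Egr mRNA between time points, averaged over 3 constructs and 2 media (edgeR, 54 libraries). From 2 to 6 h, Egr1 and Egr2 lie above 0 at 0.35 and 0.36, and Egr3 and Egr4 below it at -1.01 and -1.17.

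The split between Egr1 and Egr2 on one side and Egr3 and Egr4 on the other was tested as the change of the ratio of 2 members within a library, in which library scaling all but cancels. Both the split and this test were chosen after the values of these same libraries were seen. The p-values below therefore describe the split and are no independent support for it. Same-numbered libraries of the same construct and medium gave 18 pairs per comparison, and a two-sided exact sign-flip permutation test was run on each, with adjustment over the 18 ratio changes (6 ratios, 3 comparisons). From 2 to 6 h the log2 ratio of Egr1 to Egr4 rose by 1.46 ± 0.786 (SD, n = 18 pairs) and that of Egr2 to Egr3 by 1.34 ± 0.600. All 4 ratios that cross the split rose in 18 of 18 pairs, each with an exact adjusted p of 1.37e-05, from 7.63e-06, the smallest that 18 pairs can give. Within the split, the ratio of Egr1 to Egr2 changed by -0.04 ± 0.366 (exact permutation adjusted p = 0.64) and that of Egr3 to Egr4 by 0.16 ± 0.686 (exact adjusted p = 0.37).

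From 6 to 24 h all 6 ratios changed past the threshold. How common such changes are among ratios of other genes was not computed, for this or any other comparison. The ratios that cross the split rose by 0.83 (Egr2 to Egr3) to 1.99 (Egr1 to Egr4) on the log2 scale, in 15 to 18 of 18 pairs. Within the split, the log2 ratio of Egr1 to Egr2 rose by 0.19 ± 0.339 (SD, n = 18 pairs, exact permutation adjusted p = 0.038), in 13 pairs, and that of Egr3 to Egr4 by 0.97 ± 1.02 (exact adjusted p = 0.0018), in 16. The mean change of the Egr1 to Egr2 ratio was 0.04 in culture 1, 0.25 in culture 2 and 0.27 in culture 3. It was thus small, and close to none in culture 1.

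From 2 to 24 h the same 4 ratios rose in 18 of 18 pairs, by 2.18 (Egr2 to Egr3) to 3.45 (Egr1 to Egr4) on the log2 scale. Egr4 also dropped more than Egr3, with a change of their log2 ratio of 1.12 ± 0.882 (SD, n = 18 pairs, exact permutation adjusted p = 0.00021), in 16 of 18 pairs. The ratio of Egr1 to Egr2 was 0.15 ± 0.501 higher at 24 than at 2 h (exact permutation adjusted p = 0.26). The pairs carry only 3 culture numbers, and a test over 3 means, 1 for each number, cannot go below 0.25. Each of these 3 means had the same sign for each of the 4 ratios that cross the split, in both comparisons: for Egr1 to Egr4 at 24 h they were 2.80, 3.87 and 3.67.

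The Egr mRNAs also differed between the numbered cultures. Egr3 was highest in culture 1 in 18 of 18 groups, Egr1 in 17, Egr4 in 15 and Egr2 in 13. Of all genes, 0.437%, 1.80%, 6.68% and 14.1% were highest in culture 1 in at least as many groups, and the median gene was so in 7. At 2 h the median level in culture 1 over the mean of the other cultures in the same group was 1.62-fold for Egr1, 1.27-fold for Egr2, 1.71-fold for Egr3 and 1.41-fold for Egr4. At 24 h it was 2.68-fold, 2.77-fold, 4.99-fold and 4.69-fold, and culture 1 was the highest in 6 of 6 groups for each member. The median Egr4 level at 24 h was 20.5 CPM in culture 1, 2.03 in culture 2 and 4.01 in culture 3 (6 libraries each). The part of culture-wide differences, such as the principal component scores and the mitochondrial share given above, in these levels was not tested.

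The drop with time was therefore shallower in culture 1. From 2 to 24 h the mean log2 difference of Egr4 was -2.93 ± 1.56 in culture 1, -5.08 ± 0.719 in culture 2 and -4.72 ± 1.49 in culture 3 (SD, n = 6 pairs each). Egr1 differed by -0.13 ± 1.24 in culture 1, where it was lower at 24 h in 3 of 6 pairs, and by -1.22 ± 0.746 and -1.04 ± 0.507 in cultures 2 and 3, where it was lower in all 6. Between 2 and 6 h the mean log2 difference of Egr3 was -1.0 ± 0.474, -1.01 ± 0.295 and -1.01 ± 0.519 in cultures 1, 2 and 3, lower in all 6 pairs of each. That of Egr4 was -0.73 ± 1.19 in culture 1, where it was lower in 3 of 6 pairs, and -1.23 ± 0.399 and -1.52 ± 0.340 in cultures 2 and 3, where it was lower in all 6.

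**Figure D3:**
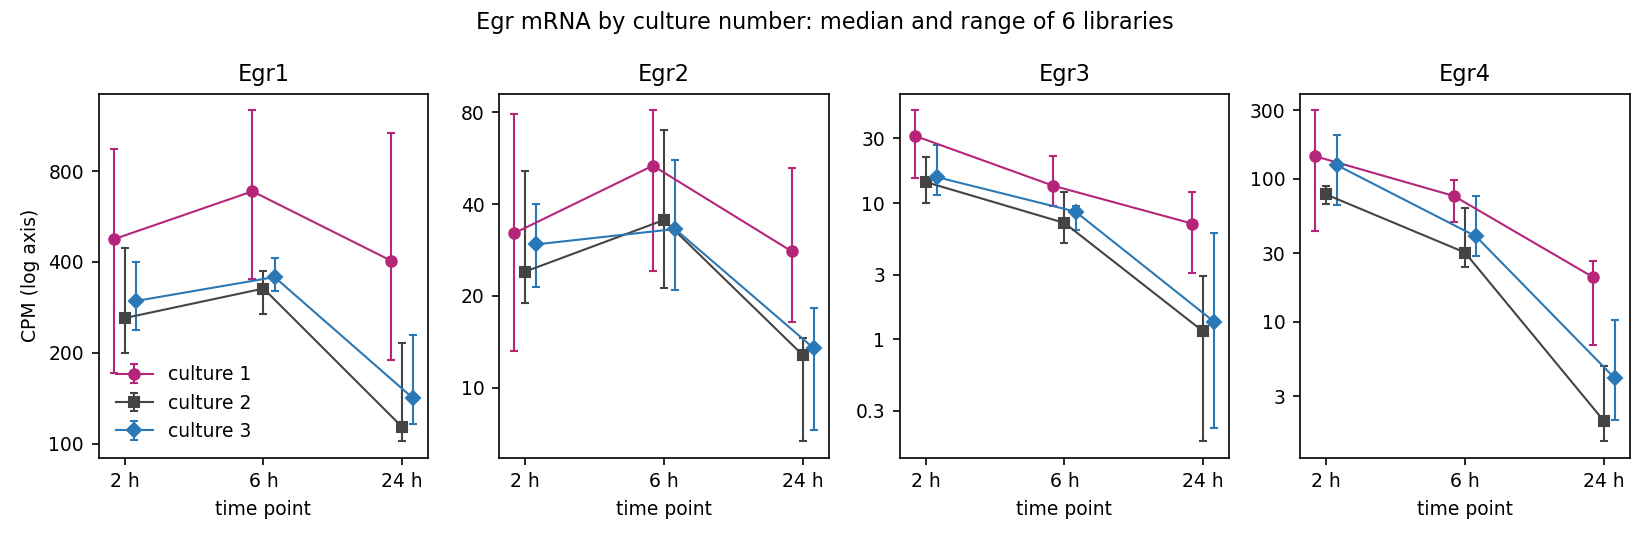
Median CPM (log axis) of each Egr mRNA in the 6 libraries of each culture number at 2, 6 and 24 h, with bars from the lowest to the highest library. Culture 1 has the highest median of every member at every time point, and the gap is widest at 24 h.

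Removing magnesium, the epileptiform condition, gave no change of any Egr mRNA that passed the test at any time point. No gene passed it at 2, 6 or 24 h (0.0% of 17172, edgeR). An unadjusted p under 0.05 was found in that test for 132, 355 and 1988 genes. If no gene changed, a share of 0.05 would be expected. The counts at 2 and 6 h were below that share, and only the count at 24 h was above it. A count below that share does not show that no gene changed. This fit had no block for culture number, so differences between cultures stayed in its spread. With a replicate block per time point, 0% of genes passed at 2 h, 0% at 6 h and 6.91% at 24 h. DESeq2 called 1, 0 and 88 genes (0.00466%, 0% and 0.41% of 21461). At 2 h the log2 difference, magnesium-free against magnesium, was 0.12 ± 0.36 for Egr1, 0.11 ± 0.29 for Egr2, -0.31 ± 0.46 for Egr3 and 0.11 ± 0.47 for Egr4 (SE, edgeR adjusted p = 1.00 for each). At 6 h it lay between -0.22 (Egr1) and 0.19 (Egr4). In the rMBD3 cultures at 6 h the magnesium-free libraries had 62.0, 75.5 and 80.3 CPM of Egr4, all above the 37, 49.6 and 55.2 CPM with magnesium. The groups did not overlap there, as for 2.70% of genes in this direction, but the difference did not pass the test.

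At 24 h all 4 members were lower without magnesium, by values that did not pass. The log2 difference was -0.88 ± 0.36 for Egr1 (edgeR adjusted p = 0.34), -0.52 ± 0.30 for Egr2 (0.50), -0.58 ± 0.48 for Egr3 (0.67) and -0.76 ± 0.48 for Egr4 (0.56). The median over the members was -0.67, against 0.00 over all genes. Egr1 was lower in 7 of the 9 same-numbered pairs, Egr2 in 8, Egr3 in 6 and Egr4 in 5. With a replicate block per time point, Egr1 passed (log2 difference -0.66 ± 0.20, adjusted p = 0.036), as did 6.91% of genes. With 1 block for each culture number, 0.21% of genes passed and no member was among them. In the untransfected cultures at 24 h, Egr1 was at 1065, 102 and 229 CPM with magnesium and 442, 116 and 142 without, for cultures 1, 2 and 3, so the largest gap was in culture 1.

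None of the 9 comparisons of media within 1 construct at 1 time point called a member, or any other gene (0.0% in each). The medium effect at 24 h differed from that at 2 h by -1.0 ± 0.51 for Egr1, -0.64 ± 0.42 for Egr2, -0.27 ± 0.66 for Egr3 and -0.87 ± 0.67 for Egr4, none past the test (edgeR adjusted p = 1.00 for each), which 0.0% of genes passed. On simulated counts the averaged comparison at 24 h recovered 69% of genes changed 2-fold and 91% of those changed 4-fold. The counts were drawn independently for each library, with 200 genes changed. These shares are averages over genes and do not give the recovery for the Egr members.

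**Figure D4:**
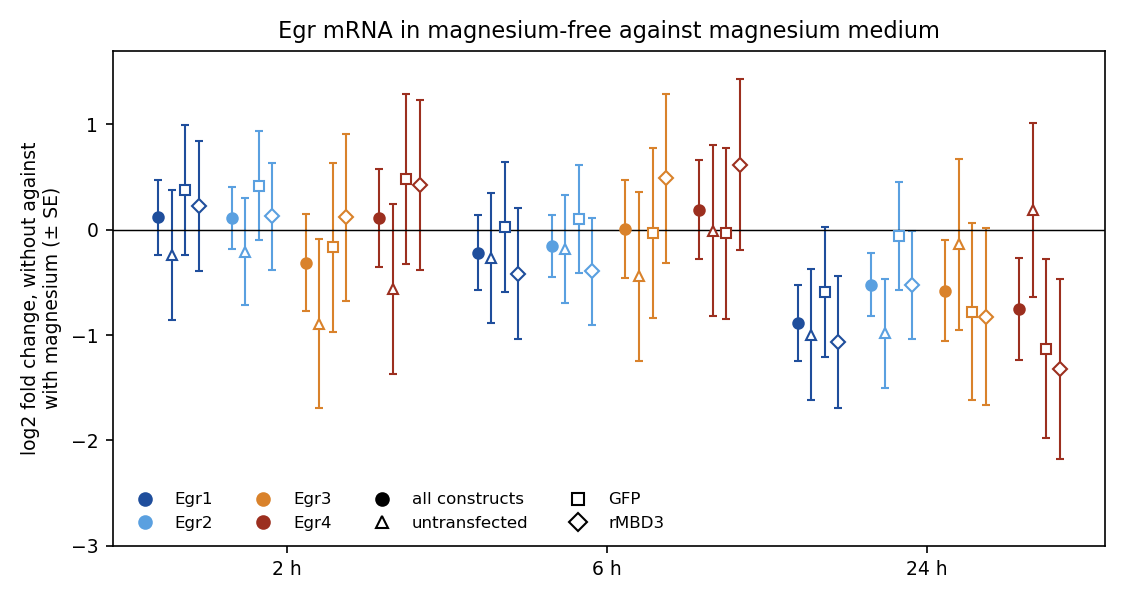
Log2 fold change (± SE) of each Egr mRNA without against with magnesium at 2, 6 and 24 h. Filled circles average the 3 constructs and open symbols are single constructs. No value passed the test, and at 24 h the 4 averages lie between -0.88 and -0.52.

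Egr2 was the only member that passed the main test of rMBD3 against GFP over all conditions. Whether its change differed from those of the other members was not tested. Averaged over both media and all time points, Egr2 was 1.98-fold higher in rMBD3 than in GFP cultures. This was a log2 change of 0.99 ± 0.21 (SE, edgeR adjusted p = 0.0018). At the same threshold 11% of genes changed and 6.41% rose. Egr1 was 1.46-fold higher, with a log2 change of 0.55 ± 0.25 that did not pass (adjusted p = 0.16), and Egr3 and Egr4 differed by 0.39 ± 0.33 (adjusted p = 0.50) and 0.22 ± 0.34 (0.74). The median over the 4 was 0.47, against -0.03 over all genes.

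In standard medium at 2 h, Egr2 stood at 67.0, 48.7 and 40.1 CPM in the rMBD3 cultures 1, 2 and 3 and at 13.2, 22.4 and 21.3 CPM in the GFP cultures. Without magnesium at 2 h the values were 79.2, 51.4 and 39.7 CPM against 21.9, 19 and 35.1. At 6 h they were 81.5, 70.3 and 55.8 against 24.2, 41.7 and 26.8 CPM with magnesium, and 64.7, 39 and 54.4 against 32.2, 32 and 35.2 without. In these 4 conditions every rMBD3 culture was above every GFP culture, and 1.33% of genes were so in at least 4 of the 6 conditions. At 24 h the groups overlapped: 52.6, 13.7 and 18.3 against 16.4, 14.5 and 12.2 CPM with magnesium, and 31.3, 12.4 and 15.0 against 19.7, 13.1 and 8.49 without. Culture 1 had the highest rMBD3 value in all 6 conditions. Egr2 was higher with rMBD3 in 16 of 18 same-numbered pairs, as were 6.55% of genes in at least as many.

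The rise of Egr2 was larger in culture 1, with a mean log2 difference of 1.55 ± 0.608, than in culture 2 (0.57 ± 0.636) and culture 3 (0.69 ± 0.307, SD, n = 6 pairs each). Without culture 1 the log2 change was 0.63 (edgeR adjusted p = 0.0010), where 14.5% of genes passed. Without culture 3 it was 1.14 and lost the call (adjusted p = 0.052). With a replicate block per time point Egr1 also passed in this comparison (log2 change 0.43, adjusted p = 0.023), as did 23.8% of genes, and with 1 block for each culture number 17.4% of genes passed.

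**Figure D5:**
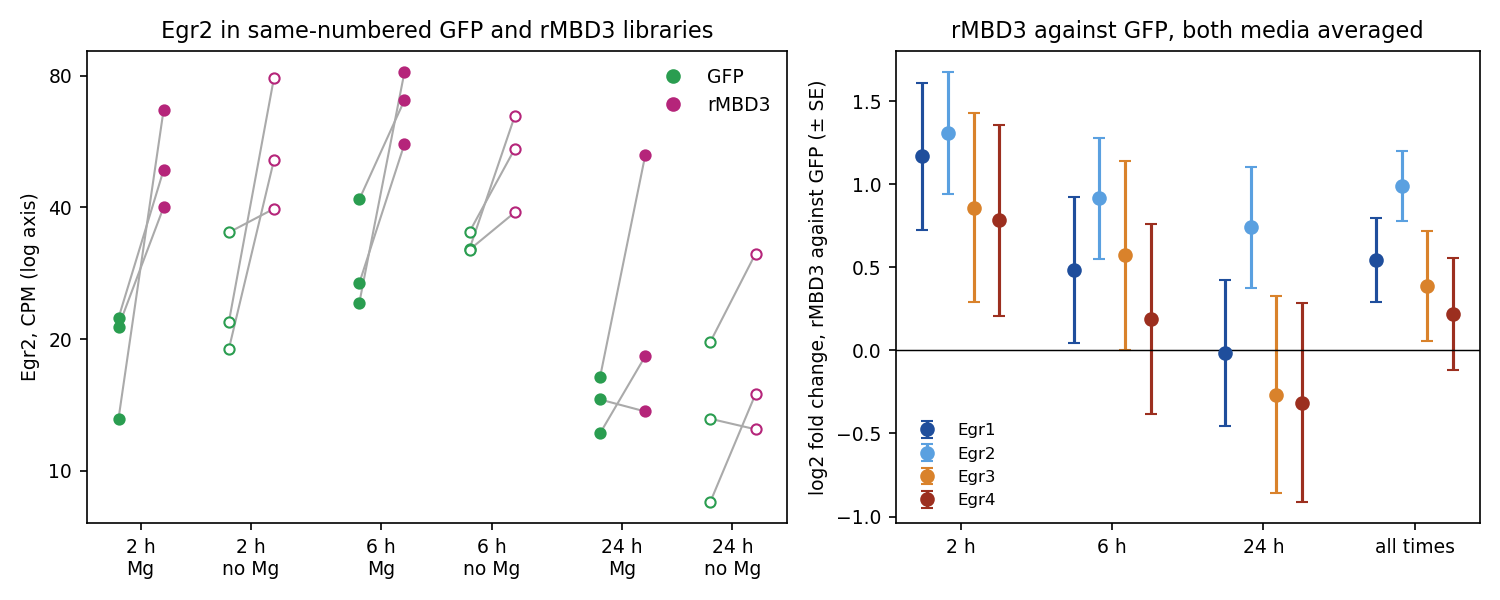
Left, Egr2 in CPM (log axis) in same-numbered GFP and rMBD3 libraries, joined by lines, by time point and medium (open points, without magnesium). Right, log2 fold change (± SE) of each member, rMBD3 against GFP, averaged over both media. The rMBD3 libraries of Egr2 lie above the GFP libraries in all 4 conditions at 2 and 6 h, and the averages of Egr1, Egr3 and Egr4 at 24 h lie below 0.

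At 2 h all 4 members were higher with rMBD3, with Egr2 at 2.47-fold (log2 change 1.31 ± 0.37, edgeR adjusted p = 0.076) and Egr1 at 2.25-fold (1.17 ± 0.44, adjusted p = 0.26). Egr3 and Egr4 differed by 0.86 ± 0.57 and 0.78 ± 0.57 on the log2 scale. No member passed the test, which 0.874% of genes did. With magnesium, Egr1 was at 682, 446 and 380 CPM in rMBD3 cultures 1, 2 and 3 and at 171, 226 and 238 CPM in GFP cultures. Without magnesium it was at 946, 415 and 399 CPM against 363, 199 and 263. Egr1 thus spanned 380 to 946 CPM in the 6 rMBD3 libraries and 171 to 363 in the 6 GFP libraries, and Egr2 spanned 39.7 to 79.2 against 13.2 to 35.1. Neither gene's ranges overlapped, as for 1.49% of genes in this direction. With the culture number as a block both passed, Egr1 at an adjusted p of 0.026 and Egr2 at 0.018, as did 2.67% of genes. With a replicate block per time point their adjusted p was 0.0055 and 0.0020, where 6.03% of genes passed, and DESeq2 called Egr2 alone (adjusted p = 0.032), where 1.3% did. Without culture 1 both passed as well, with smaller log2 changes of 0.84 (adjusted p = 0.015) and 0.91 (adjusted p = 0.026), where 1.26% of genes passed.

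At 6 h Egr2 was 0.92 ± 0.36 higher with rMBD3 on the log2 scale (edgeR adjusted p = 0.37, and 0.046 with a replicate block per time point, which 3.1% of genes passed), and at 24 h 0.74 ± 0.37 higher (adjusted p = 0.28). Of all genes, 0.221% passed at 6 h and 0.949% at 24 h, and with 1 block for each culture number 1.42% and 6.59%, none of them a member. With the block per time point 12.7% passed at 24 h, again no member. At 24 h the differences of Egr1, Egr3 and Egr4 were -0.02 ± 0.44, -0.27 ± 0.59 and -0.31 ± 0.60. Egr1 and Egr4 were each higher with rMBD3 in only 1 of 6 pairs at 24 h. The rMBD3 effect at 24 h minus that at 2 h was -1.18 ± 0.62 for Egr1, -0.57 ± 0.51 for Egr2, -1.13 ± 0.82 for Egr3 and -1.10 ± 0.83 for Egr4, with edgeR adjusted p of 0.61 to 0.78. This test was passed by 0.0175% of genes, so a change of the effect with time was not shown. Egr1 passed this test only without culture 1 (-1.23, adjusted p = 0.025), as did 0.318% of genes. The effect without minus with magnesium was between -0.42 (Egr2) and 0.25 (Egr3), none past the test (adjusted p = 1.00 for each, 0.0% of genes).

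In single media at 1 time point, no member passed in any of the 6 comparisons of rMBD3 with GFP, in which 0.00582% to 0.134% of genes did. The log2 change of Egr2 was between 0.51 ± 0.52 (24 h, without magnesium) and 1.45 ± 0.52 (2 h, with magnesium). Egr3 at 24 h with magnesium showed how far 1 culture could decide such a value. It was at 8.41, 0.179 and 0.957 CPM in rMBD3 cultures 1, 2 and 3, and at 5.92, 2.94 and 2.37 CPM in GFP cultures, with rMBD3 higher in culture 1 and lower in the others. The lowest of these values rested on a count of 5. The log2 change was -0.25 ± 0.83 with all cultures (edgeR adjusted p = 0.94) and -2.23 without culture 1 (adjusted p = 0.014). In the fit without culture 1, 10.1% of genes passed this comparison, against 0.134% with all cultures.

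No member passed the test between GFP and untransfected cultures. Averaged over all conditions, the log2 difference was -0.65 ± 0.25 for Egr1 (edgeR adjusted p = 0.32), -0.24 ± 0.21 for Egr2 (0.86), -0.48 ± 0.33 for Egr3 (0.74) and -0.09 ± 0.33 for Egr4 (1.00), and 0.297% of genes passed. Egr1 was lower in GFP in 15 of 18 pairs, with a mean log2 difference of -1.17 ± 0.636 in culture 1, 0.12 ± 0.540 in culture 2 and -0.27 ± 0.186 in culture 3 (SD, n = 6 pairs each).

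Against untransfected cultures, Egr2 was 1.68-fold higher with rMBD3 (log2 change 0.75 ± 0.21, edgeR adjusted p = 0.018). Of all genes, 8.65% changed and 4.27% rose in this comparison, which uses the same rMBD3 libraries as the one against GFP. Egr2 was higher in all 18 same-numbered pairs, as were 0.804% of genes. Its mean log2 difference was 0.61 ± 0.573 in culture 1, 1.03 ± 0.397 in culture 2 and 0.86 ± 0.363 in culture 3 (SD, n = 6 pairs each). The call was lost without culture 2 (adjusted p = 0.16) and without culture 3 (0.29), with log2 changes of 0.68 and 0.72. Without culture 1 the change was 0.95 (adjusted p = 5.9e-06), where 14.1% of genes passed. Egr1 (-0.11 ± 0.25), Egr3 (-0.10 ± 0.33) and Egr4 (0.13 ± 0.33) were not called, with adjusted p of 0.88 to 0.92. With 1 block for each culture number 13.2% of genes passed, and the calls of the members were as without it.

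Some pairs of members, though not all, varied together across libraries of 1 time point. Correlations of log2 CPM were taken over the 18 libraries of a time point, with a permutation test (100000 draws) that shuffled values only among libraries of the same culture number and adjustment over 18 relations. The libraries share cultures, depth and scaling. They also span all constructs and both media, and differences between these were not removed, so they enter r. At 2 h, for example, every rMBD3 library was above every GFP library for both Egr1 and Egr2. Of the 18 relations 9 passed: 5 of 6 at 2 h, 1 of 6 at 6 h and 3 of 6 at 24 h, and differences between time points were not tested. The median r over the 6 member pairs was 0.72 at 2 h, 0.57 at 6 h and 0.81 at 24 h, against 0.01, 0.00 and 0.00 over all pairs of genes. Positive and negative r cancel in a median over all pairs, so it does not show how rare a high r is. As high an r as that of a member pair was reached by 0.153% to 6.41% of gene pairs at 2 h. At 6 h these shares were 2.33% to 13%, and at 24 h 0.623% to 7.29%. With each culture number's mean removed, which is the variation the permutation tests, the member medians were 0.77, 0.35 and 0.53. As high a centred r as that of Egr1 and Egr2 was reached by 0.00818% of all gene pairs at 2 h, 3.51% at 6 h and 9.18% at 24 h, and for the 3 pairs that passed at 24 h by 5.54% to 8.06%. At 2 h Egr1 and Egr2 had r = 0.89 and rho = 0.88 (permutation p = 1e-05, the smallest that the draws can give, adjusted p = 0.00018). Without the 2 libraries farthest from the median of Egr1, r was 0.82, and within cultures 1, 2 and 3 it was 0.97, 0.98 and 0.71. Egr3 and Egr4 at 2 h had r = 0.74 and rho = 0.69 (permutation adjusted p = 0.0046 and 0.0070), with r = 0.58 without the 2 farthest libraries and 0.98, 0.77 and 0.66 within cultures. Egr1 and Egr4 had r = 0.59 at 2 h and did not pass (permutation adjusted p = 0.091).

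At 6 h only Egr1 and Egr2 passed, with r = 0.64 and rho = 0.66 (permutation adjusted p = 0.027 and 0.021), and r = 0.45 without the 2 farthest libraries. At 24 h no relation of Egr2 passed: its r was 0.82 with Egr1, 0.62 with Egr3 and 0.61 with Egr4 (permutation adjusted p = 0.13, 0.65 and 0.78), and within cultures 2 and 3 its r with Egr4 was -0.64 and -0.17. Egr1 with Egr3 (r = 0.81, permutation adjusted p = 0.013), Egr1 with Egr4 (r = 0.86, adjusted p = 0.027, but 0.056 for rho = 0.85) and Egr3 with Egr4 (r = 0.81, adjusted p = 0.037) passed at 24 h. Without culture 3 only 2 of the 18 relations passed, and without culture 1 only 4.

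Across the 18 group means, Egr3 and Egr4 were the most alike pair of members (r = 0.97), Egr1 and Egr2 came next (r = 0.84), and Egr2 and Egr3 were the least alike (r = 0.66). These are descriptions over groups that share time points. Of all genes tested, the one most like Egr4 over these means was ENSRNOG00000046667 (r = 0.992), whose mean level fell from 181 CPM at 2 h to 108 at 6 h and 34 at 24 h. Most like Egr3 was ENSRNOG00000060528 (r = 0.984), at 57.9, 40.2 and 15.0 CPM. The highest correlation of another gene with Egr1 was 0.914 and with Egr2 0.94.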

How the data were processed

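Stranded mRNA libraries (54) were sequenced; the labels' protocols name a KAPA kit, STAR, rn6, featureCounts and DESeq2, and the submitters' processing notes name mRatBN7.2, Trim Galore, STAR, Salmon, SAMtools, featureCounts and DESeq2. The deposited counts per gene were made, per the file headers, with featureCounts 2.0.0 on read pairs, strand setting 2, mapping quality of at least 3 and Ensembl release 105 of mRatBN7.2, so the labels and the header name different builds. Reads from near-identical genes could be lost. The deposited log2 table was not used.

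Groups and culture numbers came from the labels. Counts were filtered with filterByExpr (minimum 10, total 15; 17172 genes left), scaled by TMM and tested with edgeR 4.0.16 in R 4.3.3: a quasi-likelihood model with 18 group means over all 54 libraries, robust, without block, Benjamini-Hochberg over all genes, threshold 0.05. CPM and RPKM use TMM-scaled library sizes; log2 CPM used a prior count of 2. Alternatives were the culture number as a block (1 for the series, or 1 per time point), DESeq2 1.42.0 (minimum total count 10), the RLE scaling of edgeR (relative log expression), library size only, no filter and each culture number left out. Permutation tests used Python 3.11.15. The main edgeR fit did not pair libraries. Culture numbers were used in the block alternatives, the ratio and correlation tests and the counts of same-numbered pairs. They were used there because the labels number the cell culture of each library, although they do not state a common dissection. Deviations from group means of same-numbered libraries correlated at 0.188 on average (0.277 within a time point, 0.151 between). No 2 libraries of a group were copies (chi-square per gene 9.76 to 358 in 54 pairs). Intervals of library depth cover counting error only.

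The members, lists and alternatives were chosen with earlier results of these data known. Genes named were the 4 members and, for Egr3 and Egr4, the gene most like each over group means; the gene with the largest rise in rMBD3 cultures was named after its values were seen. None of the 30560 identifiers matched the RefSeq table of 47357 genes by identifier, so gene and marker lists that need symbols were not analysed here. RefSeq places genes of the members' symbols on the same 4 chromosomes. Tested on simulated counts with 200 of 17172 genes changed, the comparison of rMBD3 with GFP recovered 86% of 2-fold and 98% of 4-fold changes with 7.07% false calls, and that of 24 h with 2 h 88% and 98% with 5.58%. For rMBD3 against GFP in 1 medium at 2 h it recovered 37% and 74%. Simulated counts were independent between libraries, and the shares are averages over genes, not values for the members.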

Additional observations from a re-analysis of the deposited data

How the results depend on the processing

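The number of members past the test (of 4) was recomputed under each alternative. The culture number as a replicate block changed it only for rMBD3 against GFP at 2 h, from 0 to 2, among the comparisons listed in the results. A replicate block per time point gave 2 there, 3 in place of 2 for 6 h against 2 h, 2 in place of 1 for rMBD3 against GFP over all conditions, and 1 in place of 0 for the medium at 24 h and for rMBD3 against GFP at 6 h; DESeq2 gave 1 in place of 0 for rMBD3 against GFP at 2 h. For 24 h against 2 h, DESeq2, relative log expression factors and no low-count filter each gave 3 in place of 4. Leaving out each replicate number gave 0 to 4 in place of 2 for 6 h against 2 h, 2 to 4 in place of 4 for 24 h against 2 h, 3 to 4 in place of 4 for 24 h against 6 h, 0 to 1 in place of 1 for rMBD3 against GFP and against untransfected cultures, 0 to 2 in place of 0 for rMBD3 against GFP at 2 h, 0 to 1 in place of 0 for single media and for the rMBD3 effect at 24 h minus 2 h, and 2 to 7 in place of 9 correlated pairs. Egr1 was highest in all 18 groups under each alternative run, Egr3 lowest in 17 or 18, and Egr4 was above Egr2 in 11 to 14, against 13; coding length was not used here. Changed ratios numbered 14 to 16, against 15, in alternatives chosen after seeing the data.

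Of 684 log2 values of comparisons averaged over media or constructs, 25 turned sign, none past the test. Of 540 within single conditions (15 comparisons), 40 turned sign, 25 of them on leaving out a replicate number, and none past the test. Ranges over all alternative fits, those that leave out 1 replicate number included, follow for values whose sign turned. For the medium they were -0.051 to 0.20 (Egr1, 2 h), -0.32 to 0.50 (Egr4, 2 h), -0.31 to 0.014 (Egr1, 6 h) and -0.083 to 0.089 (Egr3, 6 h). For the medium effect they were -0.80 to 0.051 (Egr3, 24 minus 2 h), -0.49 to 0.065 (Egr1, 6 minus 2 h) and -0.11 to 0.45 (Egr4, 6 minus 2 h). For rMBD3 against GFP they were -0.054 to 0.32 (Egr4), -0.059 to 0.75 (Egr4, 6 h), -0.39 to 0.12 (Egr1, 24 h) and -0.58 to 0.14 (Egr1, effect without minus with magnesium). For GFP against untransfected they were -0.49 to 0.32 (Egr2), -0.25 to 0.19 (Egr4), -0.55 to 0.073 (Egr2, 2 h), -0.31 to 0.049 (Egr3, 2 h), -0.22 to 0.45 (Egr4, 2 h), -0.46 to 0.50 (Egr2, 6 h), -0.96 to 0.056 (Egr1, 24 h) and -0.71 to 0.39 (Egr2, 24 h). For Egr1 in rMBD3 against untransfected the range was -0.18 to 0.12. Among the fits that left out no replicate number, Egr3 (medium, 6 h) was at -0.0044 with DESeq2, -0.0050 with relative log expression factors and -0.0016 with library size only. In such fits Egr2 (GFP against untransfected, 6 h) was at 0.066 with the replicate block and 0.012 with the block per time point.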
